A study of Mus musculus with 10 samples.

Results

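The PERK, ATF4 and CHOP arm of the unfolded protein response was followed through 10 genes: Eif2ak3, Atf4, Ddit3, Atf3, Atf5, Trib3, Ppp1r15a, Chac1, Sesn2 and Ddit4. They were picked by symbol as known parts of the pathway, with earlier results of these data known, and each matched 1 of the 47340 genes of the deposited table. All 10 were among the 13065 genes that reached a mean of 1 FPKM (fragments mapped to a gene, scaled by its exon length and by the library's mapped fragments) in at least 1 group and were tested. RNASeq was performed on islets from 12-wk-old male, chow-fed mice, with 1 library for each of 5 floxed control (FL) and 5 βFIT2KO (KO) mice. Both groups carry floxed alleles of Fitm2, which encodes the ER protein FIT2, although the labels call the FL group wild type. KO mice carry in addition a Cre transgene under the rat insulin promoter, so that recombination is expected in the β cells and not in the other cells of the islet. Islets with Cre and an intact Fitm2 were not analysed here, and an effect of Cre and one of losing FIT2 cannot be told apart in this comparison. All islets were left to recover overnight in CMRL medium before RNA was taken.

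PERK, the product of Eif2ak3, is a kinase in the ER membrane that senses unfolded proteins in the ER lumen. It phosphorylates the translation factor eIF2, which slows protein synthesis in general while the Atf4 mRNA is translated more, so that the amount of ATF4 is set largely at translation. ATF4 then turns on genes for amino acid supply and redox balance and, with stronger or longer stress, Ddit3, which encodes the proapoptotic factor CHOP. β cells make large amounts of proinsulin in the ER and depend on this arm, and loss of PERK leads to β cell failure and diabetes.

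Fitm2 was at 15.5 to 37.1 FPKM in FL islets and at 4.30 to 9.13 FPKM in KO islets (limma log2 fold change −1.58 ± 0.28 SE, adjusted p = 0.00228). The libraries differed in depth, and the deepest, FL5, held an estimated 2.42 times as many reads as the shallowest, FL1. Even the least covered library held an estimated 274 reads of the lowest member, Atf3, reckoned with its shortest coding transcript, for a counting error of 6.04%. Markers of some cell types moved with the groups. Of 10 β cell markers, the defining Ins1, Ins2 and Iapp were listed at 0 in all 10 libraries, which cannot be read as their absence from islets, and the summed FPKM of the other 7 was 2273 to 2844 in FL and 1511 to 2124 in KO, with 6 called lower (beside 16.5% of all tested genes). The sum of 6 stromal markers was 11.9 to 20.3 in FL and 24.2 to 33.2 in KO (5 called higher), that of 8 macrophage and leukocyte markers 131 to 155 and 184 to 224 (3 called higher), and that of 6 endothelial markers 178 to 204 and 219 to 265 (4 called higher), of 5, 6 and 6 tested and beside 9.05% of all tested genes. Gcg, the defining alpha cell gene, was likewise listed at 0 in all 10 libraries and adds nothing to the alpha sum. The sums of the alpha, delta, PP, acinar and duct cell markers overlapped between FL and KO, with at most 1 gene of a list called in either direction. The part of these cells in the results that follow was not tested. Fewer cells of a type and less RNA per cell cannot be told apart in whole islets.

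The promoters of 5 members are shown because 3 of these genes (Ddit3, Ppp1r15a and Chac1) carried clear differences between the groups and because 3 (Chac1, Atf3 and Trib3) hold the letters of the composite site through which ATF4 and a C/EBP partner bind DNA. The sequences are from RefSeq (GRCm38.p6) and are written 5′ to 3′ on the strand of the gene. The first 4 run from 250 bases before the transcription start to the base before it, and the Trib3 stretch runs from base 4 to base 31 after the start. Capitals mark the composite letters TGATGNAA, read here on the opposite strand, in Chac1, Atf3 and Trib3, and the cAMP response element TGACGTCA in Ppp1r15a.
Ddit3, chr10:127290543-127290792, plus strand: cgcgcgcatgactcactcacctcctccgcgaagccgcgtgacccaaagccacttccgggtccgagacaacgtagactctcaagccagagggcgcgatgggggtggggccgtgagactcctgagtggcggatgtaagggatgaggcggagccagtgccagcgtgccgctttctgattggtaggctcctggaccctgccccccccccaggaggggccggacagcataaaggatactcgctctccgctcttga
Ppp1r15a, chr7:45526269-45526518, minus strand: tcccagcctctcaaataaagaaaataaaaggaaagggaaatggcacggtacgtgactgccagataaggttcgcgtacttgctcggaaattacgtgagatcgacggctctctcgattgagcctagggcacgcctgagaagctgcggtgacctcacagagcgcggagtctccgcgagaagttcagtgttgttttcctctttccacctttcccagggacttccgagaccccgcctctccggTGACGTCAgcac
Chac1, chr2:119350992-119351241, plus strand: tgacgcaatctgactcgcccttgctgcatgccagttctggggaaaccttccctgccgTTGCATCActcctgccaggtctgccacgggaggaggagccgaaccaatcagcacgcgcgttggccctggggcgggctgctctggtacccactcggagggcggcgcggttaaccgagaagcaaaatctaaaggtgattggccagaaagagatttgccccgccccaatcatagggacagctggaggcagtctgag
Atf3, chr1:191183334-191183583, minus strand: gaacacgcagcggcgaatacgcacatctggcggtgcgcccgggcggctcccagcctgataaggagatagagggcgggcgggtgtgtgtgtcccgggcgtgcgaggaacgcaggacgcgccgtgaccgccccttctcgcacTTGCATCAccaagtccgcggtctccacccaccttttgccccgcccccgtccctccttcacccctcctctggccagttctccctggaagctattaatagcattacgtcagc
Trib3, chr2:152344030-152344057, minus strand: ttagctcaggtTTACATCAgccgggcgg

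All 10 members matched at least 1 promoter window of 300 bases in that table (11 windows, since Atf5 has a pair of starts). On both strands, the composite letters TGATGNAA occurred in 3 of the 11 windows and in 3.97% of all 32851 windows of the table. By the RefSeq starts they lie 110 to 103 bases before that of Atf3, 193 to 186 bases before that of Chac1, and 15 to 22 bases after that of Trib3. The Atf3 start used, chr1:191183333, lies inside the gene as GENCODE draws it, which begins at 191218039 on the minus strand. For Trib3 the letters (chr2:152344039-152344046, minus strand) lie before the GENCODE start at 152344032. The letters TGACGTCA occurred in 1.79% of all windows and, among the members, only in that of Ppp1r15a, 12 to 5 bases before the start. The hypoxia core ACGTG, which overlaps neither of these motifs in the members, was found in the windows of Ppp1r15a (beginning at −201 and −160 from the start), Ddit4 (at −187) and Ddit3 (at 22), as it was in 19.6% of all windows. Neither form of the ER stress element, searched by its consensus letters, was matched in a member window (0.119% and 0.0365% of all windows). A match of letters is a description of the window and not a site. Bases further than 250 before a start were not searched. The lack of a match, as of the composite letters in Ddit3, therefore holds for the window only. Among tested genes the 256 with the composite letters were called higher in KO in 13.3% and lower in 19.1%, and the 9381 without them in 9.04% and 16.8%, while 3428 tested genes were not matched to a promoter and were left out of this count.

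The central comparison asked whether the mRNAs of this arm differed between KO and FL islets. Ddit3 and Ppp1r15a were higher in KO, Chac1 and Atf5 were lower, and the other 6 members did not pass an adjusted p of 0.05 (limma on log2(FPKM + 1), Benjamini-Hochberg over all 13065 genes). These 4 of 10 genes called (40.0%) stand beside 25.5% of all tested genes, the 2 higher beside 9.05% and the 2 lower beside 16.5%. In the same 4 genes no FL value overlapped a KO value, as was so in 19.1% of all tested genes. Across all tested genes, 1183 were called higher and 2150 lower, a split that moved to 1622 and 1517 when the libraries were rescaled by median ratio, while the 4 calls of the arm stayed as they were. Its genes moved in opposite directions, from a log2 fold change of 0.75 for Ddit3 to −0.37 for Chac1, with a median of 0.06 beside −0.06 over all tested genes.

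**Figure D1:**
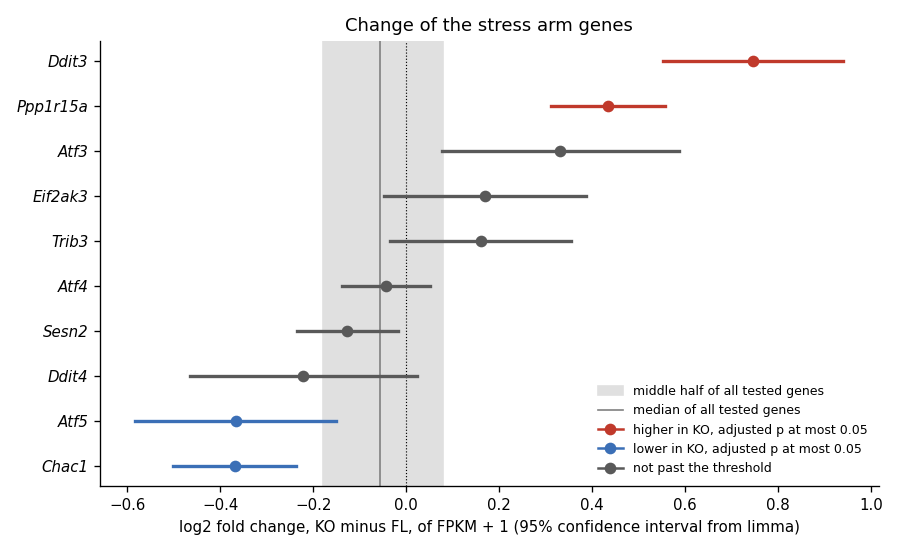
Log2 fold change of each stress arm gene (KO minus FL, of FPKM + 1) with its 95% confidence interval from limma, on the x axis, sorted by size on the y axis. The grey band holds the middle 50% of all tested genes and the grey line their median, and the intervals of Ddit3, Ppp1r15a, Chac1 and Atf5, the coloured points, stay clear of 0, as do the grey intervals of Atf3 (0.08 to 0.59) and Sesn2 (−0.24 to −0.02), which did not pass after adjustment.

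Eif2ak3, the sensor of the arm (chr6:70844515-70905245, plus strand), was at 40.4, 45.5, 33.8, 31.4 and 35.5 FPKM in FL mice 1 to 5 and at 39.9, 43.5, 36.5, 45.1 and 44.4 FPKM in KO mice 1 to 5. The groups overlapped widely, and the highest value belonged to an FL mouse. Limma gave a log2 fold change of 0.17 ± 0.10 (SE) with a 95% interval of −0.05 to 0.39 (adjusted p = 0.23). Atf4, which encodes the factor made in greater amount when eIF2 is phosphorylated (chr15:80255184-80257541, plus strand), was among the steadiest of the members. It was at 455, 438, 470, 476 and 470 FPKM in FL and at 460, 457, 447, 452 and 424 FPKM in KO, a range of 1.09-fold within either group. Its log2 fold change of −0.04 ± 0.04 (SE) had a 95% interval of −0.14 to 0.05 (limma, adjusted p = 0.50), and its sign turned under all 4 ways of rescaling (0.00039 to 0.024). The FPKM give no view of the ATF4 protein.

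Ddit3, which encodes CHOP (chr10:127290774-127296288, plus strand), moved furthest. FL islets had 341, 378, 456, 336 and 393 FPKM, and KO islets had 625, 720, 651, 608 and 584 FPKM. Every KO mouse was above every FL mouse, with the lowest KO value 128 FPKM above the highest FL value. The mean rose from 381 ± 48.5 to 638 ± 52.1 FPKM (SD, n = 5), or 1.67-fold (limma log2 fold change 0.75 ± 0.09 SE, adjusted p = 0.00016). Of all tested genes, 2.52% rose by as much or more. Ddit3 was the only member called when genes also had to change by 1.5-fold. The annotation also holds another protein-coding model named Ddit3 on the same strand, which overlaps it by 2925 bases and was not matched to a row used here. Ddit3 shares 68 bases with Mars on the opposite strand. Mars, which encodes the methionyl-tRNA synthetase, went the other way, from 107 ± 6.35 to 75.2 ± 7.24 FPKM (SD, n = 5). The libraries mark strand, and whether reads were assigned by strand is not given in the sources used here.

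Atf3 (chr1:191170296-191218039, minus strand) and Atf5 (chr7:44812256-44816658, minus strand) encode further bZIP transcription factors of the stress response. Atf3, a factor made rapidly under many kinds of stress, was at 6.86, 10.3, 8.72, 10.3 and 9.81 FPKM in FL and at 10.8, 9.91, 11.6, 12.4 and 14.2 FPKM in KO. Only KO2 lay within the FL range, and FL1 and KO5 stood at the low and the high end. Its difference of 0.33 ± 0.12 (SE) on the log2 scale missed the threshold (limma adjusted p = 0.057). It passed when the libraries were rescaled (0.042 by median ratio, 0.041 by upper quartile, 0.039 by quantiles, 0.035 to TPM), with sample weights (0.034) and without KO2 (0.036).

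Atf5, whose mRNA is translated under eIF2 phosphorylation much as that of Atf4 is and whose product acts in mitochondrial stress and β cell survival, was at 503, 493, 646, 500 and 532 FPKM in FL. In KO it was at 396, 462, 385, 357 and 475 FPKM. All KO values lay below all FL values, but KO5 and FL2 were only 17.7 FPKM apart and FL3 was well above the other FL mice. Limma put the log2 fold change at −0.37 ± 0.10 (SE, adjusted p = 0.020), and over the alternatives without an added threshold its adjusted p ran from 0.0039 to 0.049. Atf5 shares 571 bases with Nup62 and 272 with Il4i1, both on the opposite strand, and those genes had 16.4 and 1.09 FPKM in FL islets, far below Atf5.

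Of the genes through which the arm feeds back on itself, Ppp1r15a and Trib3 are best known. Ppp1r15a (chr7:45522916-45526268, minus strand) encodes GADD34, the stress-induced subunit that brings protein phosphatase 1 to eIF2 and so restores translation. It was at 37.6, 34.5, 42.6, 36.0 and 37.7 FPKM in FL and at 51.1, 51.8, 50.6, 52.9 and 49.3 FPKM in KO. The KO mice were all above the FL mice and close together, with an SD of 1.36 FPKM against 3.07 in FL. This was a 1.36-fold rise, or 0.43 ± 0.06 (SE) on the log2 scale (limma adjusted p = 0.00029). Tulp2, which overlaps Ppp1r15a on the opposite strand, was listed at 0 in every library.

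Trib3 (chr2:152337422-152344032, minus strand) encodes a pseudokinase that is induced by ATF4 and CHOP and dampens their activity. Its FPKM were 117, 104, 146, 136 and 119 in FL and 133, 149, 143, 142 and 126 in KO. The groups overlapped, with FL3 and FL4 inside the KO range, and the difference of 0.16 ± 0.09 (SE) on the log2 scale did not pass (limma adjusted p = 0.21).
Among the effectors, Chac1 (chr2:119351229-119354381, plus strand) encodes an enzyme that breaks down glutathione and is a target of ATF4. It was lower in KO, with 74.2, 70.3, 77.6, 80.1 and 73.3 FPKM in FL and 53.4, 53.4, 59.4, 60.6 and 63.1 FPKM in KO. No value overlapped between the groups. The mean fell from 75.1 ± 3.85 to 58.0 ± 4.38 FPKM (SD, n = 5), a limma log2 fold change of −0.37 ± 0.06 (SE) at an adjusted p of 0.0013. Chac1 went down in the same islets in which Ddit3 went up.

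Sesn2 (chr4:132492032-132510501, minus strand) and Ddit4 (chr10:59949669-59951834, minus strand) encode sestrin 2 and REDD1, both of which restrain the growth kinase complex mTORC1. Sesn2 was at 61.5, 57.1, 65.1, 62.6 and 63.1 FPKM in FL and at 56.2, 60.0, 55.8, 58.0 and 52.9 FPKM in KO. Only FL2 lay within the KO range, and without that mouse the adjusted p of limma went from 0.085 to 0.046 at a log2 fold change of −0.16 (−0.13 ± 0.05 SE with all mice). Sesn2 also passed with sample weights (adjusted p = 0.043), while the 4 rescalings cut its difference to between −0.08 and −0.06 on the log2 scale (adjusted p 0.26 to 0.32 from limma). Ddit4 was at 44.9, 40.4, 36.6, 32.4 and 35.5 FPKM in FL and at 30.5, 26.1, 34.4, 32.3 and 39.4 FPKM in KO. Its groups overlapped, and its difference of −0.22 ± 0.11 (SE) on the log2 scale did not pass (limma adjusted p = 0.17).

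**Figure D2:**
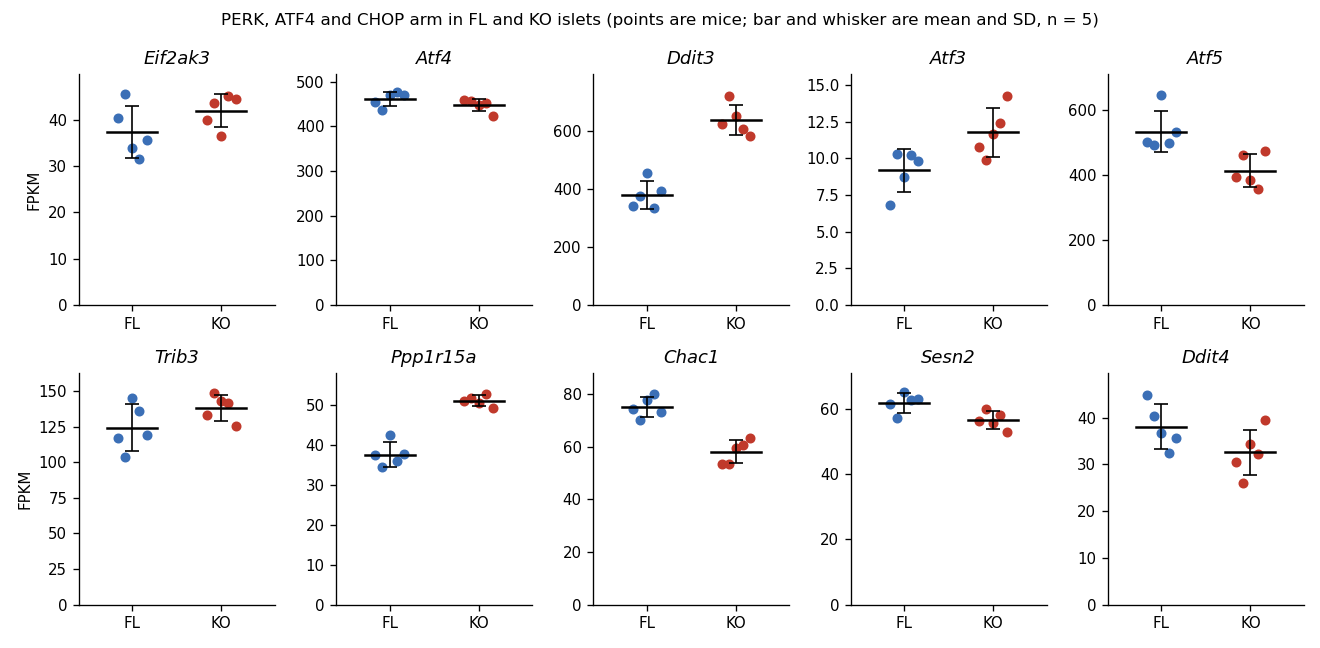
FPKM of the 10 stress arm genes in each mouse, in 1 panel per gene, with FL in blue and KO in red, a bar for the mean and a whisker for the SD (n = 5), on axes that start at 0. The 5 KO points of Ddit3 (584 to 720 FPKM) and Ppp1r15a (49.3 to 52.9 FPKM) lie above all FL points, those of Chac1 and Atf5 below, and those of Atf4 level with them.

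The members also differed in level per length. In FL islets Atf5 (535 FPKM), Atf4 (462 FPKM) and Ddit3 (381 FPKM) were the most abundant, with Ddit3 and Atf4 overlapping, followed by Trib3 (124 FPKM), Chac1 (75.1 FPKM) and Sesn2 (61.9 FPKM). Ddit4 (38.0 FPKM), Ppp1r15a (37.7 FPKM) and Eif2ak3 (37.3 FPKM) did not differ beyond their spread (SD of 4.82, 3.07 and 5.62 FPKM), and Atf3 (9.18 FPKM) was lowest. In KO islets Ddit3 (638 FPKM) stood first, and Atf4 (448 FPKM) and Atf5 (415 FPKM) followed with values that overlapped. Over all libraries the level of Ddit3 was above that of 99.1% of tested genes, and that of Atf3 above 42.5%.

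Single mice also differed across several members. FL2 had the lowest FL value for 6 members (Atf4, Atf5, Trib3, Ppp1r15a, Chac1 and Sesn2), and FL3 the highest for 5 (Ddit3, Atf5, Trib3, Ppp1r15a and Sesn2). KO5 was lowest in KO for 5 members (Atf4, Ddit3, Trib3, Ppp1r15a and Sesn2) and highest for 4 (Atf3, Atf5, Chac1 and Ddit4). That library also had the highest sum of 10 acinar markers, 21935 FPKM beside 2962 to 8904 in the other KO mice and 4463 to 11923 in FL, and the part of acinar RNA in its values was not tested. The 4 calls, 2 higher and 2 lower, held without KO5 and without each of the other mice in turn.

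A ratio of each member to Atf4 within a library does not move when each library is scaled by 1 factor, though quantile normalization can move it. The ratio of Ddit3 to Atf4 was 0.750, 0.863, 0.971, 0.706 and 0.837 in FL and 1.36, 1.58, 1.46, 1.35 and 1.38 in KO. Thus Ddit3 was below Atf4 in every FL library and above it in every KO library (log2 difference 0.79, p = 0.00794, exact two-sided permutation test of 5 against 5 mice, the smallest p it can give). Ppp1r15a over Atf4 rose from 0.0816 ± 0.0057 to 0.114 ± 0.0024 and Chac1 over Atf4 fell from 0.163 ± 0.0047 to 0.130 ± 0.014 (SD, n = 5), again with no overlap and an exact permutation p of 0.00794 each. These 3 of 9 ratios without overlap stand beside 17.2% of all tested genes set over Atf4. The other ratios overlapped between the groups: Atf5 fell (exact permutation p = 0.024), Atf3 and Trib3 rose (0.024 and 0.032), Sesn2 fell (0.016), and Eif2ak3 and Ddit4 did not pass (0.143 and 0.246), all unadjusted over the 9. Leaving out single mice ended this for Atf3 (FL1), Atf5 (FL3 or KO4) and Trib3 (FL2, KO2, KO3 or KO4), with p from 0.056 to 0.071. With Eif2ak3 as the denominator, which varied more between mice, Ddit3, Atf5 and Chac1 still passed and Ppp1r15a did not (exact permutation p = 0.087).

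**Figure D3:**
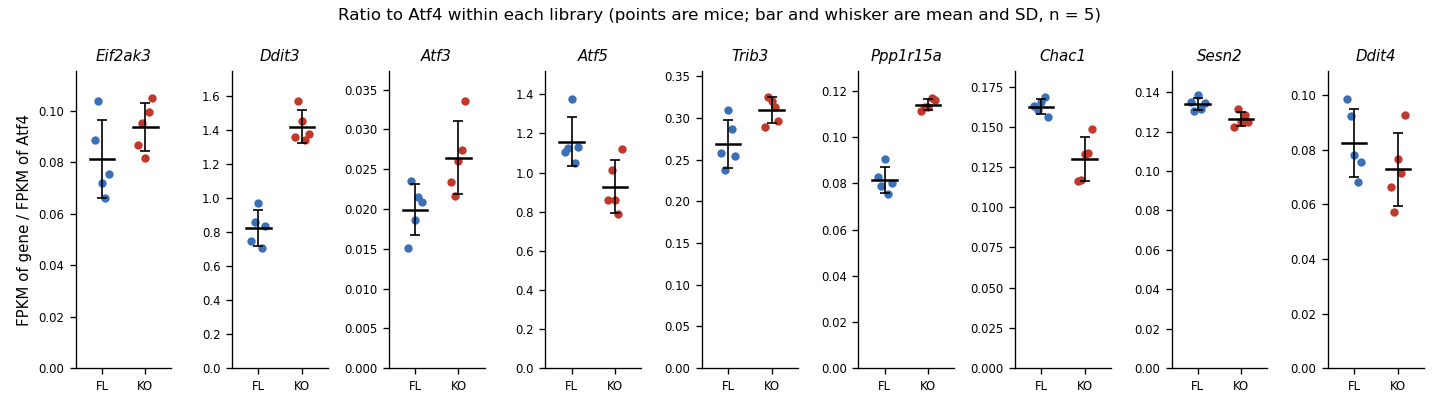
FPKM of each of 9 stress arm genes divided by the FPKM of Atf4 in the same library, with FL in blue and KO in red, a bar for the mean and a whisker for the SD (n = 5), on axes that start at 0. The ratio of Ddit3 lies below 1 in the 5 FL mice (0.706 to 0.971) and above 1 in the 5 KO mice (1.35 to 1.58).

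The machinery upstream of ATF4 was examined through 18 genes for the other eIF2 kinases, the subunits of eIF2 and of its exchange factor eIF2B, and the eIF2 phosphatases and their partners. None was called in either direction by limma (beside 25.5% of all tested genes). An unadjusted p under 0.05 was reached by 4, for which the share of all tested genes is not given here. An exact Wilcoxon rank test with the same adjustment called 0, beside 2494 of all 13065 tested genes. The kinases Eif2ak1, Eif2ak2 and Eif2ak4, which answer to haem lack, viral RNA and amino acid lack, were at 16.7, 7.92 and 5.31 FPKM in FL and 15.8, 7.49 and 5.42 FPKM in KO. Eif2s1, the subunit that is phosphorylated, was at 22.1 ± 0.76 and 20.9 ± 1.17 FPKM (SD, n = 5). Ppp1r15b, the constitutive counterpart of Ppp1r15a, differed by −0.17 ± 0.07 (SE) on the log2 scale (limma adjusted p = 0.091), and Dnajc3, an ER protein that holds PERK in check, by −0.01 ± 0.06, with a sign that turned when single mice were left out (−0.04 to 0.02). Impact, an inhibitor of amino acid sensing by Eif2ak4 and chosen here after its values were seen, was called higher under the 4 rescalings (log2 fold change 0.20 to 0.22) and with sample weights. In the other direction, and likewise chosen after their values were seen, Eif2b5, a subunit of eIF2B, was called lower with sample weights or without KO2 (adjusted p of 0.017 from limma in each), and Ppp1cb, a catalytic subunit of protein phosphatase 1, with the replicate number as a block (log2 fold change −0.28, adjusted p = 0.047 from limma).

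Close relatives of the members and their dimer partners were read in the same way. Of 16 tested of 17, 4 were called lower by limma (beside 16.5% of all tested genes) and none higher (beside 9.05%). The Wilcoxon test also called none higher, beside 867 of all 13065 tested genes. In either direction 6 of the 16 had an unadjusted limma p under 0.05, as did at least the 25.5% of all tested genes that were called. The 4 called lower were Atf1 (−0.32), Cebpg (−0.28), Sesn1 (−0.28) and Creb1, the last chosen after its values were seen (log2 fold change −0.24). Cebpg, a partner of ATF4 at amino acid response genes, fell from 71.3 ± 3.99 to 58.4 ± 2.91 FPKM (SD, n = 5, adjusted p = 0.0028 from limma). The call of Sesn1 was lost without KO1 and under 3 of the 4 rescalings (adjusted p 0.051 to 0.063 from limma). Nupr1, a stress-induced chromatin protein, spread from 1476 to 2846 FPKM in FL and from 1746 to 4292 FPKM in KO (log2 fold change 0.40 ± 0.24 SE, adjusted p = 0.26 from limma), and its log2 fold change was 0.23 without KO5. The log2 fold changes of Sesn3 (−0.13), Trib1 (−0.12), Trib2 (−0.18), Chac2 (−0.10), Cebpb (−0.14) and Ddit4l (0.08) did not pass either, although Trib1 did without KO5 and with sample weights (adjusted p of 0.036 and 0.035 from limma). Single mice weighed on the smaller of these values: Ddit4l was at 0.26 without FL1, Cebpb at −0.07 without FL2, Chac2 at −0.05 without KO2 and Sesn3 at −0.08 without FL4.

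Other known ATF4 targets, 49 tested of 51 in 4 groups, gave 6 called higher and 15 lower (42.9% called, beside 25.5% of all tested genes), and their median log2 fold change was −0.05 beside −0.06 over all tested genes. Rescaling the libraries moved these counts to between 8 and 9 higher and between 13 and 14 lower. Over all 13065 tested genes it moved 1183 higher and 2150 lower to between 1386 and 1675 higher and between 1455 and 1708 lower. Of 13 amino acid synthesis genes 1 rose and 5 fell, and of 13 aminoacyl-tRNA synthetase and tRNA export genes 5 fell, beside 9.05% higher and 16.5% lower of all tested genes. Cbs, which starts the conversion of homocysteine to cysteine, fell from 41.0 ± 6.11 to 18.2 ± 2.64 FPKM (SD, n = 5, log2 fold change −1.12), and Mthfd2, a mitochondrial folate enzyme, from 129 ± 7.08 to 95.8 ± 5.51 FPKM (−0.43). Mars fell as given above, and Aars, the alanyl-tRNA synthetase, had a log2 fold change of −0.33. Pycr1, a proline synthesis enzyme, rose from 36.1 ± 3.05 to 44.0 ± 3.74 FPKM (SD, n = 5, adjusted p = 0.018 from limma, and 0.064 by the exact Wilcoxon rank test).

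Among 10 amino acid transporters 1 was called higher and 2 lower (beside 9.05% and 16.5% of all tested genes). Under rescaling 2 or 3 were called higher and 2 lower, beside 1386 to 1675 and 1455 to 1708 of 13065, so no direction can be given for them. Slc7a11, the cystine carrier, rose from 1.25 ± 0.28 to 2.13 ± 0.53 FPKM (SD, n = 5), but its call was lost without FL3, FL4, FL5, KO1, KO4 or KO5 (adjusted p 0.054 to 0.068 from limma), with the replicate number as a block (0.073), without a filter on low values (0.054) and by the exact Wilcoxon rank test (0.102). Slc7a5 and Slc1a4, carriers of large neutral and small neutral amino acids, fell by 0.25 and 0.22 on the log2 scale, and the call of Slc7a5 was lost by the exact Wilcoxon rank test (adjusted p = 0.064). Of 13 tested stress and signalling targets 4 rose and 3 fell, beside 9.05% and 16.5% of all tested genes. Gdf15, a stress-induced hormone, rose from 19.5 ± 2.63 to 33.8 ± 7.39 FPKM (SD, n = 5, log2 fold change 0.74, adjusted p = 0.0038 from limma), and Sqstm1, the autophagy receptor p62, from 1379 ± 75.7 to 1694 ± 102 FPKM (0.30). Ndrg1 (−0.41) and the growth factor Vegfa (−0.40) fell.

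Genes reported to follow CHOP, the ER oxidases and genes of cell death, gave 1 call in each direction of 10 tested of 13, beside 9.05% higher and 16.5% lower of all tested genes. Tnfrsf10b, the death receptor DR5, rose from 1.49 ± 0.16 to 2.11 ± 0.10 FPKM, and Bcl2l11, which encodes the proapoptotic BIM, fell from 8.60 ± 1.16 to 6.49 ± 0.71 FPKM (SD, n = 5, adjusted p of 0.0087 and 0.016 from limma). The call of Bcl2l11 was lost with the replicate number as a block (adjusted p = 0.051). Under the rescalings 2 or 3 of the 10 were called higher and 1 lower, beside 1386 to 1675 and 1455 to 1708 of 13065 tested genes. Of 20 targets of ATF6 and XBP1, the other arms of the unfolded protein response, 4 were called (beside 25.5% of all tested genes): 1 was called higher (Creld2, 141 ± 5.23 to 183 ± 20.9 FPKM) and 3 lower (Hyou1, Sdf2l1 and Manf, the last chosen after its values were seen, with log2 fold changes of −0.26, −0.19 and −0.12). That split turned to 4 higher and 1 lower by median ratio, upper quartile and quantiles, with Edem1, Sel1l and Syvn1 (also chosen after their values were seen) passing and Sdf2l1 and Manf not. All 13065 tested genes moved as well, from 1183 higher and 2150 lower to 1622 and 1517, 1675 and 1455, and 1494 and 1708. So no direction can be given for this list. Sdf2l1 lost its call without any 1 of FL1, FL2, FL3, FL5, KO1, KO2 and KO4 as well (adjusted p 0.052 to 0.073 from limma). With single mice left out, 1 or 2 of the list were called lower and 1 or 2 higher, beside 1589 to 2367 and 936 to 1130 over all tested genes.

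Several members answer to other signals too, and lists of genes for those signals were read beside them. The p53 list, which bears on Sesn2, had 5 of 10 genes higher, among them Phlda3 (9.85 to 11.5 FPKM in FL, 17.5 to 23.9 in KO) and Eda2r (0.779 to 1.31 and 1.73 to 2.70 FPKM), and 1 lower, Tigar (−0.26; not called with the replicate number as a block, adjusted p = 0.055 from limma). By the exact Wilcoxon rank test 3 of the 10 were called higher. The hypoxia list, which bears on Ddit4, had 8 of 11 tested genes lower, led by Aldoa (log2 fold change −0.84) and Ankrd37 (−0.79), though the FL and KO values of Ankrd37 overlapped and its call was lost without FL2, KO1, KO4 or KO5 (adjusted p 0.052 to 0.056 from limma). An exact Wilcoxon rank test called 2 of these 11 lower. The glucocorticoid list, also tied to Ddit4, had 3 of 8 tested genes lower, or 1 or 2 under rescaling, among them Tsc22d3 (−0.31) and Per1 (−0.38; not called without FL3, FL4 or KO4, adjusted p 0.057 to 0.061 from limma). Immediate early genes, to which Atf3 belongs, had 2 of 16 tested of 22 higher: Jun, from 17.8 ± 0.73 to 25.7 ± 1.98 FPKM (SD, n = 5, log2 fold change 0.50), and Klf6 (0.29; not called without FL3, FL5, KO1, KO4 or KO5, adjusted p 0.054 to 0.057 from limma). Of 7 tested genes of mitochondrial stress, to which Atf5 and Ddit3 also respond, 3 were lower, or 2 under rescaling, among them Hspa9 and Lonp1 (both −0.25). The limma counts without rescaling stand beside 16.5% lower and 9.05% higher of all tested genes. Those of the Wilcoxon test stand beside 867 higher and 1627 lower of 13065, and the rescaled counts beside 1455 to 1708 lower. The part of these signals in the members' values was not tested.

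**Figure D4:**
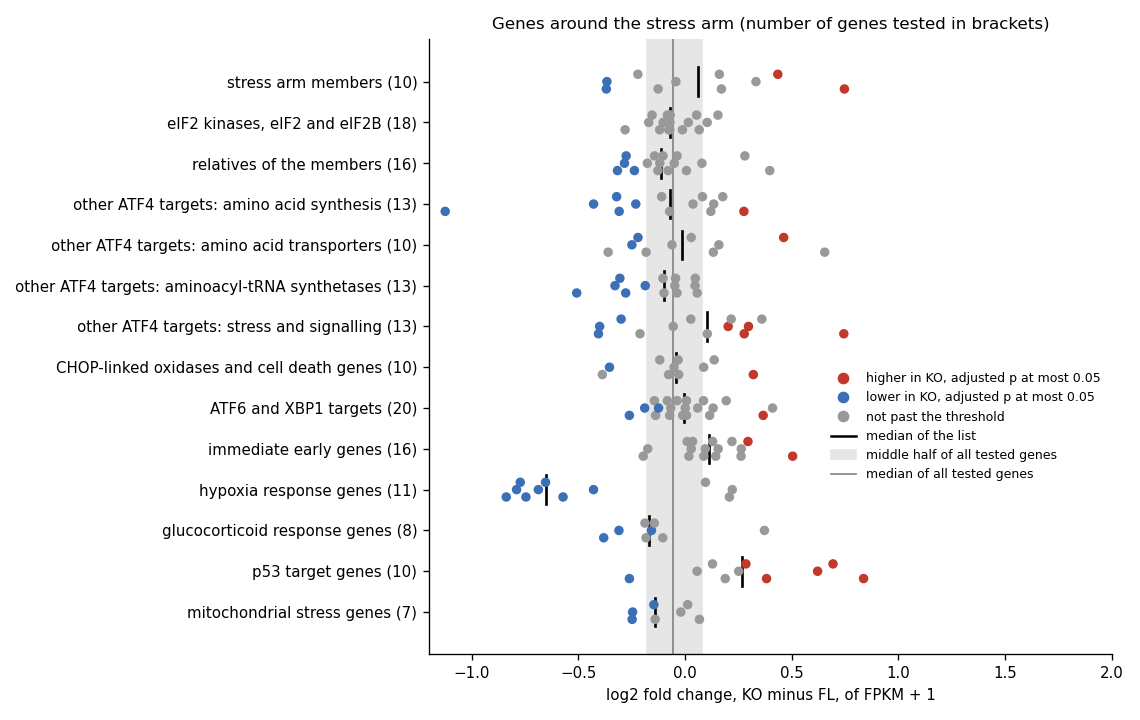
Log2 fold change (KO minus FL, of FPKM + 1) on the x axis of every tested gene in the stress arm and in 13 lists of related genes on the y axis, in red where called higher in KO, in blue where called lower and in grey otherwise, with a black bar for the median of each list and a grey band for the middle 50% of all tested genes. The stress arm spans from −0.37 to 0.75 around a median of 0.06, and the hypoxia list has the lowest median, −0.65.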

How the data were processed

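Polyadenylated RNA from islets of 5 FL and 5 KO mice was sequenced from a single end with stranded libraries, 1 per mouse. The values the authors deposited are FPKM of 47340 genes in 10 columns, and 22548 genes were at 0 throughout. The submitters' processing notes name STAR 2.5.2a, Cuffnorm 2.2.1 and the mm10 (GRCm38) build, and how the libraries were scaled is not given in the sources used here. FPKM do not hold read counts, so relative depth was read from the steps between values below 0.3 FPKM.

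Limma 3.58.1 (R 4.3.3) was used to compare FL and KO on log2(FPKM + 1), with a trend and no covariate, for the 13065 genes that averaged 1 FPKM or more in either group. A fold change on this scale understates that of low genes. Genes were called at a Benjamini-Hochberg adjusted p of at most 0.05. Ratios of FPKM within a library were tested by exact permutation of the mice, two-sided. The mice are separate animals, and FL and KO mice that share a number are not described as paired. Coordinates are from GENCODE M21 (GRCm38), in which 7 of the 10 members have the same gene version, and promoters from RefSeq GRCm38.p6, searched for letters on both strands. Summaries used pandas 2.3.3, numpy 2.4.6 and matplotlib 3.10.9 under Python 3.11.15, and the fit was tested on simulated data.

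The members and the gene lists were chosen with earlier results of these data known. Named are the members, Fitm2, a set of partners, and in each list the 2 called genes with the largest rise and the 2 with the largest fall, and any others are said to be chosen after their values were seen. The alternatives tried were other pseudocounts (0.1 and 0.01), filters and scalings, limma with sample weights, with robust eBayes or without a trend, the Wilcoxon rank test (exact), a replicate block, stricter thresholds, leaving out each mouse, and Eif2ak3 as the denominator of the ratios.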

Additional observations from a re-analysis of the deposited data

Results flagged for a closer look

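In 8 of 110 groups of 5 mice, formed by the 55 named genes in FL and in KO, 1 mouse stood apart from the other 4 by a gap that took up most of the group's range. Chance alone gives about 1 such group in 20, or 5.5 of 110. Among the members this concerned Atf5, at 646 FPKM in FL3 with the nearest FL mouse at 532 FPKM, and the call of Atf5 held without FL3. Among the other genes, FL4 was highest in FL for Eif2s1 (23.4 FPKM, the nearest 21.8) and for Tsc22d3 (24.1 FPKM, the nearest 22.6). FL1 had 2.28 FPKM of Ddit4l beside 0.824 in the nearest FL mouse. Creld2 was highest at 150.0 FPKM in FL3 (nearest 140.5) and at 219 FPKM in KO2 (nearest 182). KO2 was also highest in KO for Slc7a5, at 168 FPKM with the nearest at 149.6 FPKM. KO3 had 31.9 FPKM of Ankrd37, within the FL range, while the nearest KO mouse had 14.9 FPKM.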

How the results depend on the processing

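Ddit3, Ppp1r15a, Chac1 and Atf5 kept their direction and their calls under every alternative tried except an added threshold. The exact Wilcoxon rank test could call only genes without overlap between the groups. Its calls of these genes restate that their values do not overlap and are not separate support. When genes also had to change by 1.5-fold, 1 member was called higher (Ddit3) and 0 lower, as log2 fold changes of 0.43 for Ppp1r15a, −0.37 for Chac1 and −0.37 for Atf5 fall short of it, and 349 genes in all were called higher and 290 lower. With the adjusted p held to 0.01, 1 member was lower because Atf5 (−0.37) was lost, and all tested genes gave 622 higher and 1044 lower. Atf4 changed sign under rescaling by median ratio, upper quartile, quantiles and to TPM (0.016, 0.024, 0.022 and 0.00039, from −0.04). Atf3 passed under the same 4 rescalings (0.39, 0.39, 0.38 and 0.38) and with sample weights (0.31), and Sesn2 with sample weights (−0.13). Over single mice left out, the log2 fold change of Atf3 ran from 0.24 to 0.39 and that of Sesn2 from −0.16 to −0.10. The changes of 4 members that did not pass shrank by more than 1.5 times without 1 mouse: Trib3 to 0.10 without FL2, Eif2ak3 to 0.11 without FL4, Ddit4 to −0.15 without KO2 and Atf4 to −0.02 without KO5. With single mice left out, the log2 ratios to Atf4 ran from 0.31 to 0.48 for Atf3, from −0.40 to −0.26 for Atf5 and from 0.16 to 0.26 for Trib3. They ran from −0.28 to −0.10 for Ddit4 and from 0.15 to 0.31 for Eif2ak3, which passed without FL2 (exact permutation p = 0.040). With Eif2ak3 as the denominator, Trib3 changed sign (−0.013), Atf3 (0.19), Ppp1r15a (0.27) and Sesn2 (−0.30) no longer passed, and Ddit4 passed (−0.40, exact permutation p = 0.016). Among the genes of the other lists, Klf6, Ankrd37 and Sdf2l1 also lost their calls with the replicate block and by the exact Wilcoxon rank test, Ankrd37 and Per1 without a filter on low values, and Per1 on rescaling to TPM. The cause of these changes was not tested.

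The replicate numbers are not described as pairing the mice. The deviations of same-numbered FL and KO mice from their group means correlated at −0.011, −0.102, 0.003, −0.015 and −0.032. Mice with different numbers were not set beside them, so these values cannot decide whether a number marks a shared litter or handling. With the replicate number as a block, 874 genes were called higher and 1494 lower, and the members still gave 2 higher and 2 lower. The upper quartile, quantile and TPM scalings gave 1675 higher and 1455 lower, 1494 and 1708, and 1386 and 1528 over the table.

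Reckoned with the shortest coding transcript of each member, depth limits Atf3 and Ppp1r15a most, with an estimated 274 and 307 reads in their least covered library. The coding transcripts of Ppp1r15a run from 389 to 2809 bases, and with a longer one its estimate and its place in this order would be higher. Whether strand was used in counting is not given in the sources used here. The Atf4 mRNA does not report the ATF4 protein, and mRNA was measured at 1 age in cultured whole islets.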
